A study of Mus musculus with 15 samples.

Results

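Lin28a, Lin28b, Hmga2, Igf2bp1, Igf2bp2, Igf2bp3 and Trim71 are genes of the early embryo and of fetal tissue, and were described across mouse embryonic stem (ES) cells and paraxial mesoderm made from them. Of these 7 genes, chosen by name from a series with 18193 genes that have a probe set of their own, 6 had a probe set annotated to them alone and 5 passed the filter on low signal. Lin28b was measured but lay below the filter, and Igf2bp2 had no such probe set in the annotation used and is not analysed here. In all, 19 probe sets belonged to the 6 genes, and each gene is given by the one with the highest mean signal over all 15 arrays.

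There were 3 arrays, labelled biological replicates, in each of 5 groups. Unsorted E14 ES cells (strain 129P2) came from day 0 of culture with LIF and the inhibitors CHIRON99021 and PD0325901, which block GSK3 and MEK. They had been grown on inactivated embryonic fibroblasts as feeders. All other cells received BMP4 (10 ng/ml, 2 days) in serum-free medium, followed by 0.5% DMSO plus LDN193189 (0.1 µM), an inhibitor of BMP receptors whose last digits differ in some labels. In CDL medium the Wnt pathway was activated with the GSK3 inhibitor CHIRON99021 at 1 µM, and in RDL medium with the secreted Wnt agonist Rspo3 at 10 ng/ml. At day 4, cells of line E14 were sorted for an Msgn1 reporter in both media. At day 6, cells of another line, CK35 (strain 129Sv), were sorted for a Pax3-GFP reporter in both media. Cell line, strain and sort reporter therefore changed with the day and cannot be told apart from it, and medium, sort and differentiation cannot be told apart between day 4 and ES cells.

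The genes are joined by the microRNA let-7. LIN28A and LIN28B bind the precursors of let-7 and block their processing, in part by bringing in a uridylating enzyme, and mature let-7 in turn represses the mRNAs of both Lin28 genes, of Hmga2, of the Igf2bp genes and of Trim71. These genes are high in the early embryo and in fetal tissue, are silenced in most adult tissues and return in some tumours, hence the word oncofetal. In paraxial mesoderm, which forms the somites, Lin28 and its partners are known from mouse embryos to be active in the tail bud and to decline as the trunk matures.

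Mature let-7 forms and precursor loops are shown because both arms of the circuit can be read in them. The mature sequences come from RefSeq on build GRCm38.p6, with the seed (bases 2 to 8) in capitals. The gene of let-7a-1 gives its mature form from chr13:48538239-48538260, minus strand, and that of let-7g from chr9:106178846-106178867, plus strand.
let-7a-5p: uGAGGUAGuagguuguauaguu
let-7d-5p: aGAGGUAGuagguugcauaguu
let-7g-5p: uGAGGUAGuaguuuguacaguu
miR-98-5p: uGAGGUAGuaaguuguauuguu
let-7j: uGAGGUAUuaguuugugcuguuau
Of 11 mature names in the family, 10 share the seed GAGGUAG, and let-7j differs in its last seed base. The stretches between the 2 mature arms of the precursor follow, with the letters GGAG, bound by the zinc fingers of LIN28 proteins, in capitals.
let-7a-1 loop: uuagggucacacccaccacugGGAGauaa
let-7g loop: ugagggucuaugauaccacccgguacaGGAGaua
let-7d loop: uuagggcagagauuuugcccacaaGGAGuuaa
let-7b loop: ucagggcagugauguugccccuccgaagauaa
let-7c-2 loop: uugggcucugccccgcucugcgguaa
Of 11 family hairpins with both arms in the table, 8 held GGAG between the arms, and those of let-7b, let-7c-2 and miR-98 did not. Among all 1005 hairpins of the table, 44.5% held these letters anywhere, so the match describes the loops and is no test of binding. The arrays measured mRNA, and let-7 itself is not analysed here.

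Values are array signals on a linear scale, and array medians lay between 29.4 and 31.2. The groups carried the markers of their labels: the summed signal of 7 ES cell markers was 22990 to 23720 on ES arrays, that of 5 presomitic genes was 4631 to 6144 at day 4, and that of 6 somite genes was 3553 to 8052 at day 6. The day 4 groups differed in somite genes, with a sum of 463.3 to 720.9 in CDL and 1814 to 1928 in RDL cells. Of the 6 genes, 4 were called lower and 0 higher in CDL than in RDL cells, beside 1.52% and 2.9% over all genes. The part of this in the comparisons of the media was not tested. Of all arrays 2 stood apart. CDL day 4 replicate 1 had an ES marker sum of 6944, against 895.8 and 1078 on the other CDL day 4 arrays, and Nanog at 1441. On RDL day 6 replicate 1 the mean correlation with its group was the lowest of all arrays (0.978), and the 3′ over 5′ signal of actin was the highest (1.90), while that of Gapdh was 1.02. Results that rest on these arrays are given with and without them, and the part of ES cells or RNA quality in them was not tested. The actin ratio was also 1.77 to 1.85 on ES arrays, against 1.43 to 1.60 at day 4 and 1.55 to 1.66 on the other day 6 arrays. Its part in the comparisons with ES cells was not tested. For 9 fibroblast markers the sum was 219.1 to 240.0 on ES arrays, 781.1 to 1145 at day 4 and 5226 to 10140 at day 6, mostly from collagens. Of the 8 fibroblast markers tested, 5 were higher and 2 lower in CDL and 6 higher and 2 lower in RDL cells at day 6 against day 4. Over all genes 17.4% were called higher and 22% lower in CDL cells, and 13.8% and 17.2% in RDL cells. Lum was 199 to 269 in RDL day 6 cells, against 10.6 to 13.3 in RDL day 4 cells, and Thy1 was 11.8 to 22.6 against 61.7 to 89.7. The part of fibroblasts in the results at day 6 was not tested. In such bulk samples, fewer cells with a transcript and less of it per cell cannot be told apart.

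**Figure D1:**
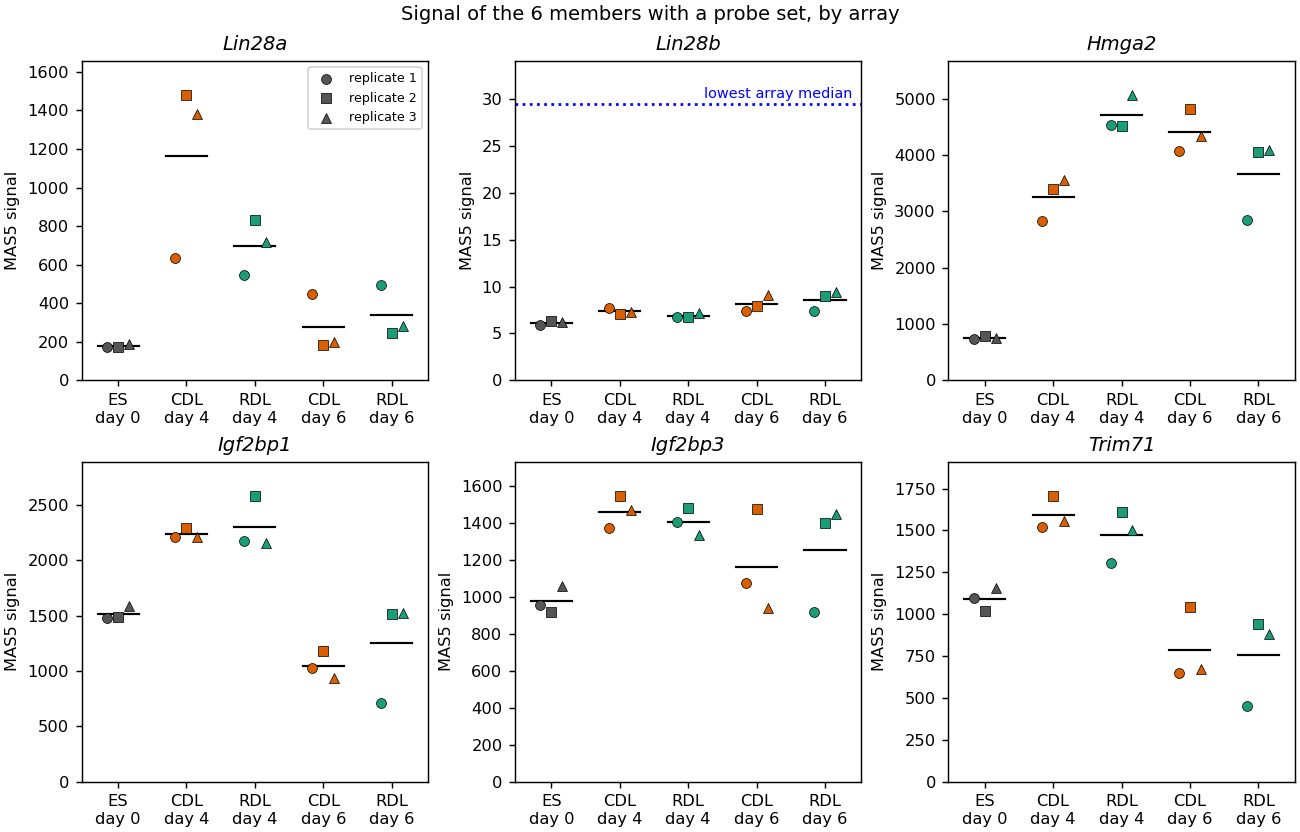
Signal (MAS5, linear scale, vertical axis from 0) of the 6 genes on each of the 15 arrays, by group. Points are arrays, marker shapes are replicate numbers, black bars are group means, and the dotted line in the Lin28b panel is the lowest array median. Lin28a peaks at day 4, Hmga2 is far higher in all 4 differentiated groups than in ES cells, and Igf2bp1 and Trim71 are lower at day 6 than at day 4.

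Lin28a encodes the LIN28 protein of pluripotent and early embryonic cells (chr4:134003330-134019196, build GRCm38.p6). Its signal was 172, 173 and 189 on the ES arrays. At day 4 it was 633, 1478 and 1379.9 in CDL cells and 545, 831 and 716 in RDL cells, and at day 6 it was 449, 186 and 198 in CDL cells and 494, 246 and 282 in RDL cells. Every day 4 array lay above every ES array and above every day 6 array of either medium, while the lowest CDL day 6 array lay within the ES range. Within CDL day 4, replicate 1, the array with ES markers, was the lowest.

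Lin28a rose in day 4 CDL cells, at a mean signal of 1164 ± 462 against 178 ± 9.59 in ES cells (SD, n = 3 each). The difference on the log2(signal + 12.6) scale, used for all differences here, was 2.53 (standard error, SE, 0.34, adjusted p = 1.07e-05). In day 4 RDL cells it averaged 697 ± 144, a log2 difference from ES cells of 1.88 (SE 0.34, adjusted p = 0.000193). Without CDL day 4 replicate 1 the CDL difference was 2.92. By day 6 it fell in CDL cells to a mean of 278 ± 149, against 1164 ± 462 at day 4 (log2 difference -2.04, SE 0.34, adjusted p = 0.000216). In RDL cells it fell to 341 ± 134 at day 6, against 697 ± 144 at day 4 (log2 difference -1.05, SE 0.34, adjusted p = 0.0285). The RDL call was lost when replicate 2 or 3 of either day was left out, with adjusted p up to 0.108.

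At day 6 Lin28a was still higher than in ES cells in RDL cells (log2 difference 0.83, SE 0.34, adjusted p = 0.0465). That call was lost without RDL day 6 replicate 1 (0.54, adjusted p = 0.196) and when replicate 3 of that group, any RDL day 4 or any ES array was left out. In CDL cells the difference at day 6 was 0.50 with a 95% interval of -0.23 to 1.22 and did not pass. The other Lin28a probe set gave the same call in all 9 comparisons, with smaller differences of 1.69 in CDL and 1.28 in RDL cells at day 4 against ES cells.

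The Lin28a promoter is shown because the media activate the Wnt pathway, whose TCF and LEF factors bind the letters CTTTGA. The Hmga2 promoter is shown because Hmga2 alone of the tested genes was called between the media with all arrays. That call was made at day 4 only and was lost when any RDL day 4 array was left out. Both promoters are the 250 bases before the gene's start in RefSeq on build GRCm38.p6, 5′ to 3′ on the minus strand, with any CTTTGA in capitals. The table takes 1 start per gene, and the Lin28a window lies inside the gene's annotated span.
Lin28a promoter, chr4:134018817-134019066: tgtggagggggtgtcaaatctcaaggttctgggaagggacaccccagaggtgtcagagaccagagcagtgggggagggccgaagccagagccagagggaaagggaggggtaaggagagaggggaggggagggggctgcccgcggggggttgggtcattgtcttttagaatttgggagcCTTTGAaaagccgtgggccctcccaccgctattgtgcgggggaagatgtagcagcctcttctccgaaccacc
Hmga2 promoter, chr10:120476470-120476719: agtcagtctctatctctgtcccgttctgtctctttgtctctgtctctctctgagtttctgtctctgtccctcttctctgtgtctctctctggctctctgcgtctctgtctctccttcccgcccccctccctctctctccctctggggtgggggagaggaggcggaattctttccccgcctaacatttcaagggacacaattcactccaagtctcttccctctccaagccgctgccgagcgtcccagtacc
Of the 7 genes, 6 had a promoter in the table. CTTTGA, searched on both strands, stood in that of Lin28a alone, 72 bases before the start, and in 14% of 27025 promoters of the same length. The E-box CACGTG stood in those of Lin28b (49 bases before the start) and Igf2bp3 (23 bases), and in 5.9% of all promoters. These windows also lie inside the annotated spans of their genes, that of Lin28b at chr10:45470202-45470451 in a span that ends at 45486314. Both sets of letters were chosen with the promoters in view, and a match is a description of these windows only.

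Lin28b encodes the second LIN28 protein (chr10:45376617-45486314). Its single probe set read 5.90 to 6.31 on ES arrays, 7.07 to 7.71 in CDL and 6.78 to 7.13 in RDL cells at day 4, and 7.36 to 9.09 in CDL and 7.37 to 9.43 in RDL cells at day 6. On their arrays 3.1% to 15.8% of probe sets had a lower signal. They were above the array median on 0 of 15 arrays, so the gene was left out of the tests. With the filter lifted, its log2 differences were at most 0.17 in size, and those of RDL day 6 against ES cells (0.17, adjusted p = 0.000729), CDL day 6 against ES cells (0.14, adjusted p = 0.00386) and RDL day 6 against RDL day 4 (0.12, adjusted p = 0.0275) passed. Signals this far below the added constant of 12.6 support no statement on the direction of Lin28b.

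Hmga2 encodes a protein with AT-hooks that binds DNA rather than RNA and bends chromatin in fetal cells (chr10:120361268-120476469). Its signal was 731, 795 and 753 on the ES arrays. At day 4 it was 2827, 3401 and 3562 in CDL cells and 4542, 4523 and 5062 in RDL cells, and at day 6 it was 4067, 4811 and 4336 in CDL cells and 2845, 4059.9 and 4085 in RDL cells. All 12 differentiated arrays lay at 2827 or above, and none overlapped the ES arrays. At day 4 the CDL arrays all lay below the RDL arrays, whereas at day 6 the ranges of the media overlapped.

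Hmga2 rose in all 4 differentiated groups against ES cells. At day 4 the mean was 3263 ± 387 in CDL cells and 4709 ± 306 in RDL cells, against 759.7 ± 32.6 in ES cells (SD, n = 3 each). The log2 differences were 2.08 (SE 0.12, adjusted p = 1.16e-09) in CDL and 2.61 (SE 0.12, adjusted p = 7.21e-11) in RDL cells. At day 6 they were 2.51 in CDL and 2.23 in RDL cells (SE 0.12 each, adjusted p = 9e-11 and 3.01e-10). All 3 other probe sets of Hmga2 were called higher in these 4 comparisons, with differences between 0.77 and 2.99.

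Between the days Hmga2 gave differences of opposite sign in the media, with the RDL call the less stable. It fell in RDL cells by day 6, at a mean of 3663 ± 709 against 4709 ± 306 at day 4 (log2 difference -0.38, SE 0.12, adjusted p = 0.0286), and rose in CDL cells by day 6, at 4405 ± 377 against 3263 ± 387 at day 4 (0.43, SE 0.12, adjusted p = 0.0113). Without RDL day 6 replicate 1 the RDL difference was -0.21 (adjusted p = 0.125), and that call was also lost without both arrays that stood apart (adjusted p = 0.0567), without RDL day 4 replicate 2 or 3, with the mean of probe sets (-0.23, adjusted p = 0.145) and with only the groups compared (adjusted p = 0.0743). Without CDL day 4 replicate 1 the CDL difference was 0.34 (adjusted p = 0.0566), which passed without both arrays that stood apart (adjusted p = 0.00259). Of the 3 other probe sets, 1 gave the same call in each medium, and their differences ran from -0.54 to 0.20 in RDL and from 0.13 to 0.60 in CDL cells.

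The Igf2bp genes encode proteins that bind mRNAs such as Igf2 and Myc and shield or localise them. Igf2bp1 (chr11:95957163-96005944) read 1483, 1483 and 1589 on ES arrays. At day 4 it read 2211, 2292 and 2215 in CDL cells and 2175, 2578 and 2158 in RDL cells, and at day 6 it read 1024, 1179 and 937 in CDL cells and 712, 1517 and 1524 in RDL cells. All 6 day 4 arrays lay above the ES arrays, and all 3 CDL day 6 arrays below them. RDL day 6 split, with replicate 1 far below and the other two arrays within the ES range.

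Igf2bp1 rose at day 4 against ES cells, by a log2 difference of 0.56 in CDL (SE 0.20, adjusted p = 0.0296) and 0.59 in RDL cells (SE 0.20, adjusted p = 0.0212). Of its 3 other probe sets, 1 gave the same call in each of these comparisons, and without CDL day 4 replicate 1 the adjusted p for CDL was 0.0503. The CDL call was lost when any ES or CDL day 4 array was left out, and the RDL call without ES replicate 1 or 2 or RDL day 4 replicate 2. By day 6 it fell against day 4, by log2 differences of -1.09 in CDL cells (SE 0.20, adjusted p = 0.000569) and -0.95 in RDL cells (SE 0.20, adjusted p = 0.00219), and all 3 other probe sets gave the same calls. Without RDL day 6 replicate 1 the RDL difference was -0.59. Against ES cells, Igf2bp1 was lower in CDL cells at day 6 (-0.54, SE 0.20, adjusted p = 0.0327), a call lost without any 1 ES array or without CDL day 6 replicate 1 or 3, and in RDL cells the difference was -0.36 (adjusted p = 0.145) with all arrays. This RDL difference was 0.00 without replicate 1, and it was called without replicate 2 or 3 (-0.54 each) and with the mean of probe sets (-0.67, adjusted p = 0.00469). Of the 3 other probe sets, 2 were called lower in RDL cells, by -0.70 and -1.40, and the same 2 in CDL cells, by -0.76 and -1.41. The remaining 1 was called in neither medium (-0.22 in RDL and -0.32 in CDL cells).

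Igf2bp3 (chr6:49085218-49215469) read 955, 915 and 1056 on ES arrays, and at day 4 it read 1369, 1542 and 1466 in CDL cells and 1402, 1479 and 1332 in RDL cells. At day 6 it read 1071, 1475 and 938 in CDL cells and 915, 1397 and 1449 in RDL cells. The day 4 arrays all lay above the ES arrays, and the day 6 arrays spread over both ranges. It rose at day 4 against ES cells by 0.58 in CDL (SE 0.16, adjusted p = 0.00719) and 0.52 in RDL cells (SE 0.16, adjusted p = 0.0128), a call shared by 3 and 1 of its 5 other probe sets. Day 6 against day 4 gave -0.35 in CDL (95% interval -0.70 to 0.00) and -0.19 in RDL cells (-0.54 to 0.16), and neither passed. The CDL difference passed without CDL day 6 replicate 2 (-0.53, adjusted p = 0.0119) or without RDL day 6 replicate 1 (adjusted p = 0.0298). Against ES cells at day 6 it gave 0.23 in CDL cells (adjusted p = 0.253) and 0.33 in RDL cells (adjusted p = 0.0942), and the RDL value was 0.54 (adjusted p = 0.00287) without RDL day 6 replicate 1 and passed without CDL day 6 replicate 2 as well (adjusted p = 0.0476).

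Trim71, the mouse relative of the worm gene lin-41, encodes a ubiquitin ligase that also binds and represses mRNAs (chr9:114511268-114564369). It read 1099, 1019.6 and 1158 on ES arrays. At day 4 it read 1519, 1703 and 1554 in CDL cells and 1303, 1607 and 1501 in RDL cells, and at day 6 it read 647, 1042 and 675 in CDL cells and 448, 940.1 and 882 in RDL cells. All day 4 arrays lay above all ES arrays, and all day 6 arrays lay below all day 4 arrays. CDL day 6 replicate 2 was the only day 6 array within the ES range.

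Trim71 fell by day 6 against day 4 in both media, to a mean of 788 ± 220.4 against 1592 ± 97.7 in CDL cells (log2 difference -1.04, SE 0.22, adjusted p = 0.00169) and to 757 ± 269 against 1470.3 ± 155 in RDL cells (-1.01, SE 0.22, adjusted p = 0.00247). Its other probe set fell as well, by -1.48 in CDL and -1.52 in RDL cells, and without RDL day 6 replicate 1 the RDL difference was -0.68. At day 4 the difference from ES cells was 0.54 in CDL cells (adjusted p = 0.0498), a call at the edge of the threshold that the other probe set (0.25) did not share and that was lost under 14 alternatives. In RDL cells at day 4 it was 0.42 (adjusted p = 0.119, and 0.016 without RDL day 6 replicate 1). At day 6 against ES cells Trim71 was called lower in RDL cells (-0.59, adjusted p = 0.0299) and gave -0.50 in CDL cells (adjusted p = 0.064). Without RDL day 6 replicate 1 the RDL value was -0.26 (adjusted p = 0.167) and the CDL value of -0.50 passed (adjusted p = 0.00544). The RDL call was also lost without ES replicate 1 or 3, and the CDL value passed without RDL day 6 replicate 2 or CDL day 6 replicate 2. The other probe set was called lower in both media, by -1.22 in CDL and -1.35 in RDL cells.

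**Figure D2:**
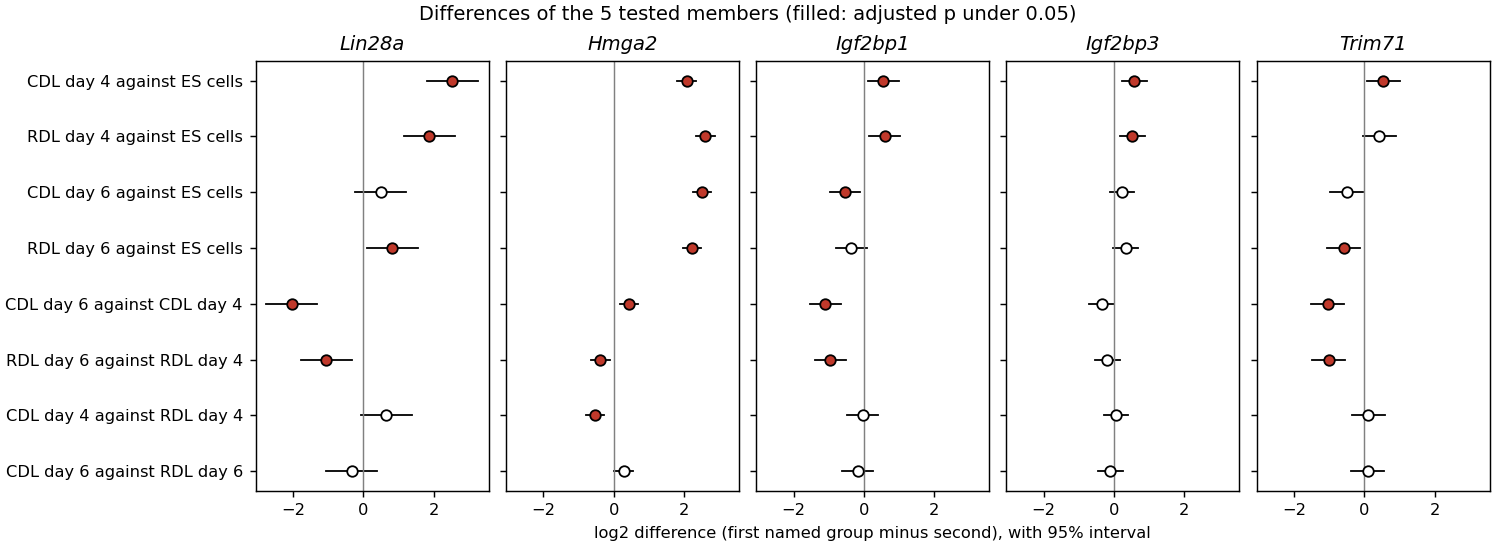
Log2 differences of the 5 tested genes (horizontal axis) in 8 comparisons (rows), with 95% intervals from limma. Filled points have an adjusted p under 0.05. Lin28a and Hmga2 show the largest differences, and for Lin28a, Igf2bp1 and Trim71 the rows of day 6 against day 4 lie left of 0 in both media.

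Counted over the 5 tested genes, CDL day 4 cells had 5 higher and 0 lower than ES cells, where 26.6% of the 12400 genes tested were called higher and 29.6% lower. RDL day 4 cells had 4 higher and 0 lower than ES cells, where 27.6% of all genes tested were called higher and 29.5% lower. Comparisons with ES cells share the same ES arrays. In CDL day 4 cells the count of 5 was 3 when any single CDL day 4 or ES array was left out, with Igf2bp1 and Trim71 past the threshold no longer, and without both arrays that stood apart 5 were higher in each medium.

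At day 6 the counts were smaller. Against ES cells, CDL day 6 cells had 1 higher (Hmga2) and 1 lower (Igf2bp1), beside 27.8% called higher and 33.3% called lower over all genes. RDL day 6 cells had 2 higher (Lin28a and Hmga2) and 1 lower (Trim71), beside 28.3% and 33.3% over all genes. Against day 4, CDL day 6 cells had 3 lower (Lin28a, Igf2bp1 and Trim71) and 1 higher (Hmga2), beside 22% called lower and 17.4% called higher over all genes. RDL day 6 cells had 4 lower (Lin28a, Hmga2, Igf2bp1 and Trim71) and 0 higher against RDL day 4, beside 17.2% called lower and 13.8% called higher over all genes. Between the days, 4 were lower and 1 higher in CDL cells and 3 lower in RDL cells without both arrays that stood apart. For Lin28a, Igf2bp1 and Trim71, at most 4.42% of all genes had a lower difference between the days in CDL cells and at most 3.64% in RDL cells. The median difference over all genes was -0.02 in both comparisons of days.

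Between the media, 1 of the 5 genes was called at day 4 and 0 at day 6. At day 4 Hmga2 was lower in CDL cells at 3263 ± 387 than in RDL cells at 4709 ± 306 (log2 difference -0.53, SE 0.12, adjusted p = 0.0197), where 1.52% of all genes were called lower and 2.9% higher. Without CDL day 4 replicate 1, the array with ES markers, it was -0.43 (adjusted p = 0.101), and without both arrays that stood apart the same -0.43 passed (adjusted p = 0.00297). The call was also lost when any RDL day 4 array was left out, and 1 of its 3 other probe sets gave the same call. Lin28a was 1164 ± 462 in CDL and 697 ± 144 in RDL cells, a log2 difference of 0.66 (95% interval -0.07 to 1.38, adjusted p = 0.405). Without both arrays that stood apart, Lin28a was 1.04 higher in CDL cells (adjusted p = 0.0263). For Igf2bp1, Igf2bp3 and Trim71 the differences at day 4 were -0.04 (95% interval -0.47 to 0.40), 0.05 (-0.30 to 0.40) and 0.12 (-0.35 to 0.59).

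At day 6, 0 of the 5 genes were called between the media, where limma called 3.68% of all genes higher and 3.94% lower. The only unadjusted p under 0.05 among the 5 was that of Hmga2 (log2 difference 0.28 for CDL against RDL, 95% interval 0.02 to 0.54, adjusted p = 0.221). Lin28a gave -0.33 (95% interval -1.06 to 0.40) and Igf2bp1 -0.18 (-0.62 to 0.26), while Igf2bp3 gave -0.11 (-0.46 to 0.24) and Trim71 0.09 (-0.38 to 0.57). Without RDL day 6 replicate 1, Igf2bp1 was lower in CDL cells at day 6 (-0.54, adjusted p = 0.00161). Tested directly, the difference between the media changed with the day for Hmga2 (interaction 0.81, SE 0.17, adjusted p = 0.0106), where 2.31% of all genes were called higher and 3.08% lower. The interaction of Lin28a was -0.99 (95% interval -2.02 to 0.04, adjusted p = 0.34).

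**Figure D3:**
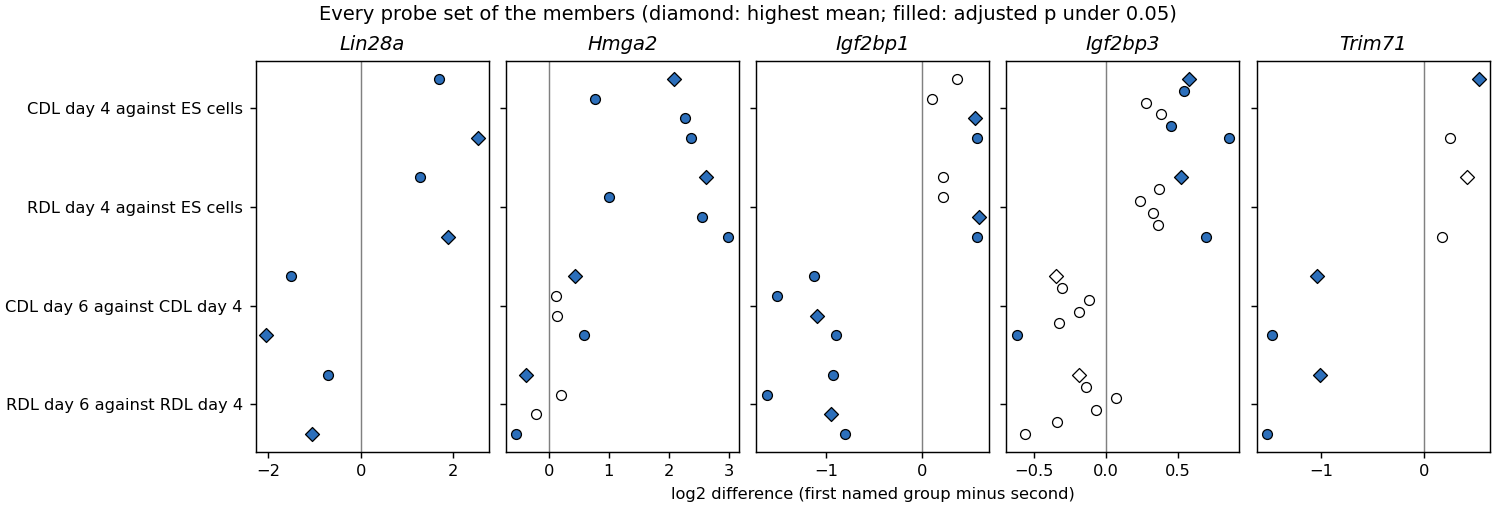
Log2 differences of every probe set of the 5 tested genes (horizontal axis, scaled to each panel) in 4 comparisons (rows). Diamonds are the probe set with the highest mean, circles the others, and filled marks have an adjusted p under 0.05. All probe sets of Lin28a, Igf2bp1 and Trim71 lie left of 0 for day 6 against day 4, and those of Hmga2 lie right of 0 in CDL cells and on both sides of 0 in RDL cells.

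Among the machinery that makes let-7, 17 of 18 listed genes were tested. At day 4 against ES cells, 4 were higher and 1 lower in CDL cells (median log2 difference 0.16, against -0.02 over all genes), and 3 were higher and 1 lower in RDL cells (median 0.21, against -0.01). The counts higher do not exceed the background, since 26.6% of all genes were called higher in CDL and 27.6% in RDL cells. Over all genes 29.6% were called lower in CDL and 29.5% in RDL cells. Prkra, a partner of Dicer, changed most, at 354 ± 10.2 in CDL and 429 ± 10.9 in RDL cells against 110.1 ± 3.36 in ES cells (log2 differences 1.58 and 1.85, adjusted p = 4.04e-08 and 5.26e-09). Tnrc6a, which silences target mRNAs with Argonaute, was higher by 0.89 in CDL and 0.95 in RDL cells, and Xpo5, which exports precursors from the nucleus, by 0.51 and 0.46. Ago2, the slicing Argonaute, was lower by -0.54 and -0.57.

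Of the 17 genes, 5 were lower and 1 higher in CDL cells against day 4 (median -0.29, against -0.02 over all genes), and 4 were lower and 1 higher in RDL cells (median -0.12). Over all genes 22% were called lower in CDL and 17.2% in RDL cells, so these counts lie not far above the background. Dicer1, which cuts the precursor, fell by -0.72 in CDL and -0.77 in RDL cells (adjusted p = 0.00304 and 0.00225). Drosha, which releases the precursor from its primary transcript, fell by -0.64 and -0.84 (adjusted p = 0.012 and 0.00229). Xpo5 and the Dicer partner Tarbp2 fell too, by -0.50 and -0.40 in CDL and by -0.38 and -0.36 in RDL cells, while Prkra rose again by 1.42 and 0.74. Without both arrays that stood apart, 7 were lower in CDL cells and 4 in RDL cells between the days, and 7 were higher in each medium at day 4 against ES cells. Shares over all genes in that fit are not reported here, so these counts are not read as changes of the machinery.

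LIN28A acts with the uridylating enzymes TUT4 and TUT7 and the nuclease DIS3L2, and all 6 listed genes of that step were tested. With all arrays, 2 were higher and 1 lower in each medium at day 4 against ES cells. These counts were near the 26.6% higher and 29.6% lower over all genes in CDL and the 27.6% and 29.5% in RDL cells. They were the same in the fit without both arrays that stood apart, which has no shares over all genes beside it. Tut4 was higher than in ES cells in every differentiated group, by 0.29 in CDL and 0.50 in RDL cells at day 4 and by 0.93 in CDL and 0.95 in RDL cells at day 6. It rose between the days as well, by 0.63 in CDL (adjusted p = 0.000293) and 0.46 in RDL cells (adjusted p = 0.00482). Tut7 was called in 0 of the 9 comparisons, with log2 differences between -0.18 and 0.26. Dis3l2 was higher at day 4 against ES cells by 0.42 in CDL and 0.40 in RDL cells. Exosc10 was lower in that comparison, by -0.32 in CDL and -0.28 in RDL cells. Tut1 was lower at day 6 against ES cells, by -0.36 in CDL and -0.44 in RDL cells.

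Reported let-7 targets outside the 7 genes were mostly higher at day 4 than in ES cells. Of 19 tested from a list of 21, 17 were higher and 0 lower in CDL cells, with a median log2 difference of 1.13 against -0.02 over all genes. In RDL cells 16 were higher and 0 lower, with a median of 1.28 against -0.01. Over all genes 26.6% were called higher in CDL and 27.6% in RDL cells. The counts were the same, 17 and 16 higher, without both arrays that stood apart. Ccnd2, a cyclin of the G1 phase, had the largest difference, at 1836 ± 181 in CDL and 1672 ± 67.6 in RDL cells against 24.6 ± 5.14 in ES cells (log2 differences 5.64 and 5.51). Irs2, an adaptor of insulin signalling, was higher by 1.93 and 2.12, E2f6, a repressive E2F factor, by 1.70 and 1.85, and Nr6a1, a nuclear receptor of the trunk, by 1.77 and 1.59.

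Between day 4 and day 6 the targets split. In CDL cells 7 fell and 2 rose (median -0.25, against -0.02 over all genes), and in RDL cells 8 fell and 1 rose (median -0.26). Over all genes 22% were called lower and 17.4% higher in CDL cells, and 17.2% lower and 13.8% higher in RDL cells. Cdk6, a G1 kinase, fell by -1.30 in CDL and -2.0 in RDL cells (adjusted p = 2.99e-05 and 3.26e-07), to 215 ± 56.0 at day 6 against 545 ± 118 at day 4 in CDL cells. Mycn, a transcription factor of the Myc family, fell by -1.13 and -1.30, Nr6a1 by -1.07 and -1.10 and the chromatin gene Arid3b by -1.05 and -1.32. Irs2 fell in RDL cells by -1.25 and gave -0.22 in CDL cells, and its interaction of medium and day was 1.02 (adjusted p = 0.0322). Ccnd2 did not move past the threshold, at -0.11 and -0.01, and neither did Myc, at -0.25 and -0.26. Igf1r, an insulin-like growth factor receptor, rose in CDL cells by 0.82, and Tgfbr1, a TGF-beta receptor, rose by 0.43 in CDL and 0.68 in RDL cells. Against ES cells, 14 of the 19 were still higher and 3 lower at day 6 in either medium. Over all genes 27.8% were called higher in CDL and 28.3% in RDL cells at day 6, and 33.3% lower in each. Without both arrays that stood apart, 9 fell and 3 rose between the days in CDL cells, and 8 fell and 2 rose in RDL cells.

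**Figure D4:**
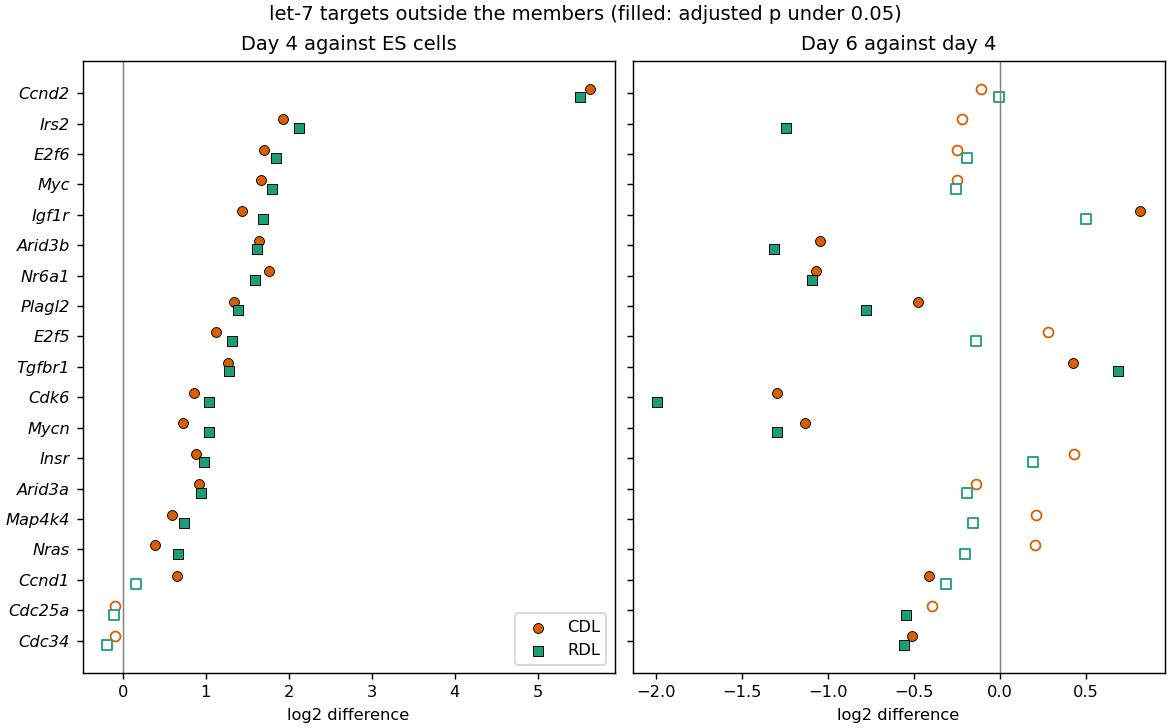
Log2 differences of 19 reported let-7 targets (rows) at day 4 against ES cells (left) and at day 6 against day 4 (right), on horizontal axes of different range. Circles are CDL and squares RDL cells, and filled marks have an adjusted p under 0.05. Nearly all marks in the left panel lie right of 0 with Ccnd2 farthest out, and in the right panel Cdk6 lies farthest left in both media.

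Transcripts reported to be bound by the IGF2BP proteins were mostly higher than in ES cells at both days. Of 8 listed, 6 were tested, and 4 were higher in each medium at day 4 and 5 at day 6 against ES cells. Medians of the 6 were 1.14 in CDL and 1.23 in RDL cells at day 4 and 1.77 and 1.45 at day 6. Over all genes the medians were -0.02, -0.01, -0.02 and -0.04, and 26.6% to 28.3% were called higher. In the fit without both arrays that stood apart, 5 were higher in each of these comparisons, with no shares over all genes beside them. For Igf2, the imprinted growth factor that names the family, mean signal was 40.5 ± 3.89 in ES cells, 2262 ± 463 in CDL and 4725 ± 363 in RDL cells at day 4, and 8460.3 ± 991 in CDL and 9823 ± 722 in RDL cells at day 6. It rose between the days by 1.91 in CDL and 1.05 in RDL cells. Cd44, a hyaluronan receptor, was higher at day 4 by 3.22 and 3.75 and at day 6 by 3.12 and 3.03 against ES cells.

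Transcripts reported to be repressed by TRIM71 showed no common direction, with 5 of 5 tested. Cdkn1a, the cell cycle inhibitor p21, fell between the days, by -1.73 in CDL and -1.63 in RDL cells. Mbnl1, a splicing regulator, rose by 1.06 and 0.92, and Egr1, an immediate early factor, gave 0.11 in CDL cells and fell by -0.48 in RDL cells. Against ES cells Egr1 had the largest difference of the list, at 6.31 in CDL and 6.41 in RDL cells at day 4. It was still higher by 6.43 and 5.93 at day 6. Rbl2 was lower than in ES cells at day 4, by -1.20 in CDL and -1.47 in RDL cells. At day 4 against ES cells, 1 was higher and 2 lower in CDL cells and 2 were higher and 2 lower in RDL cells. These counts stand beside 26.6% higher and 29.6% lower over all genes in CDL and 27.6% and 29.5% in RDL cells. In the fit without both arrays that stood apart, 1 was lower in CDL cells, with no shares over all genes beside it. Lists here share genes: Igf2, Myc and Mbnl1 stand in more than 1.

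Of genes across the arrays, those nearest to each gene in pattern are named by Pearson correlation of log2 values over the 15 arrays, which share their groups, so the values are descriptions. Nearest to Lin28a were Slc35b4 (0.946), Erap1 (0.935) and Lrrc42 (0.931). Erap1, an aminopeptidase, averaged 30.6 in ES cells, 256 in CDL and 190.1 in RDL cells at day 4, and 60.5 in CDL and 63.3 in RDL cells at day 6. Nearest to Hmga2 were Zadh2 (0.997), Paip1 (0.99) and Foxc1 (0.99), of which Foxc1, a forkhead factor of the paraxial mesoderm, averaged 11.2 in ES cells, 891 and 1332 in CDL and RDL cells at day 4, and 1183 and 1295 at day 6. Nearest to Igf2bp1 were Dxo, Ccdc86 and Gar1 (all 0.98), to Igf2bp3 Lypla2, Ctdnep1 and Vps26b (all 0.96), and to Trim71 Ncdn (0.99), Trim26 and Pdcd6ip (both 0.98).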

How the data were processed

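RNA of 15 samples was labelled in 2 cycles and hybridised to Affymetrix mouse arrays, per the labels' protocols. The deposited values are linear intensity, 1 per probe set, made with MAS5 per the submitters' processing notes, whose version and scaling are not given in the sources used here. Of 45101 probe sets, 34945 carried 1 gene symbol in the annotation used, 932 several and 9160 none. A constant of 12.6, the median over arrays of the 25th percentile, was added before log2, so differences of dim genes are understated. Genes were kept where their probe set of highest mean exceeded the array median on at least 3 arrays, which left 12400 of 18193. Group means over all 15 arrays were fitted with limma 3.58.1 in R 4.3.3 (eBayes with an intensity trend), with Benjamini-Hochberg adjustment over all genes tested and a threshold of 0.05 in 9 comparisons. Replicates are labelled biological, and precision is limited by the number of arrays. The script was tested on simulated data.

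The 7 genes are named throughout, and from each list up to 4 genes with the largest differences past the threshold, with others of the let-7 circuit chosen after their values were seen. For each gene the 3 nearest by correlation are named, clones and predicted genes passed over. The genes, lists, tests and alternatives were chosen with earlier results of these data known. Of the comparisons, only RDL day 6 against RDL day 4 had residual correlations over 0.1 for all 3 same-numbered pairs (0.28, 0.26 and 0.22). These 2 groups are of different cell lines, so the values do not show that numbers pair the arrays. For CDL day 6 against RDL day 6 the correlations were 0.61, 0.59 and -0.24. The alternatives were other constants, no filter, quantile normalization, the mean of probe sets, only the groups compared, no intensity trend, the replicate number as a block and leaving out each array. Leaving out CDL day 4 replicate 1 and RDL day 6 replicate 1 together was added after seeing the data. For that fit, shares called higher or lower over all genes are not reported here, so its counts have no background beside them. Listed genes that were dim or had no probe set of their own in the annotation used were not tested, and some listed genes are not reported here. Gene positions and sequences are from RefSeq, build GRCm38.p6. Plots used matplotlib 3.10.9 (Python 3.11.15). No source used here names the genome build of the array annotation.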

Additional observations from a re-analysis of the deposited data

Results flagged for a closer look

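For 1 result a test of the difference itself showed that 2 groups differed under the same contrast. The difference between CDL and RDL medium in Hmga2 was not the same at day 6 as at day 4 (interaction 0.81 on the log2 scale, SE 0.17, adjusted p = 0.0106). At day 6 the mean signal was 4405 ± 377 in CDL and 3663 ± 709 in RDL cells, and at day 4 it was 3263 ± 387 in CDL and 4709 ± 306 in RDL cells (SD, n = 3 each). In the separate fit across all probe sets, 1 of the 3 other Hmga2 probe sets gave the same call, with interactions between -0.07 and 1.13. Over its alternatives the interaction lay between 0.54 and 0.90. Averaged over its probe sets it was 0.56 (adjusted p = 0.0687), and it passed under all other alternatives run. Cell line, strain and sort reporter change with the day, so the interaction cannot be told apart from one with these.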

How the results depend on the processing

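Of 1080 differences of the 5 genes recomputed over 24 alternatives, 969 kept their direction and side of the threshold, 67 lost a call, 24 gained one and 20 changed sign, all of the last uncalled in the full fit. With the mean of probe sets, 3 genes were higher in CDL day 4 against ES cells, 2 were lower at day 6 against ES cells in each medium, 0 were called lower between the media at day 4 and 0 higher for the interaction. For RDL day 6 against ES cells, 1 gene was higher with the constant at the array median, without an intensity trend or with the replicate block, and 0 were lower with quantile normalization or only the groups compared. For CDL day 6 against ES cells, 0 were lower with quantile normalization, 2 were lower with only the groups compared or the replicate block, and 2 were higher with no filter, which adds Lin28b, as does the 1 higher in RDL day 6 against RDL day 4. The replicate block changed no other call: it moved Lin28a in RDL day 6 against ES cells (adjusted p = 0.057) and Trim71 in CDL day 6 against ES cells (adjusted p = 0.0267). With only the groups compared, 442 genes were called between the media at day 6. Without both arrays that stood apart, 1 gene was higher between the media at day 4, 1 lower at day 6, 1 lower for the interaction, 2 lower in CDL day 6 and 0 lower in RDL day 6 against ES cells, and 1741 genes were called between the media at day 6 and 1198 for the interaction. Leaving out each array in turn, genes higher were 3 to 5 in CDL day 4 and 1 to 3 in RDL day 6 against ES cells, and 0 to 1 in CDL day 6 against CDL day 4. Genes lower were 0 to 2 at day 6 against ES cells in each medium, 2 to 4 in RDL day 6 against RDL day 4, 0 to 1 between the media at each day and 0 to 1 for the interaction. Genes called over all were 339 to 800 between the media at day 4, 656 to 1478 at day 6 and 478 to 1194 for the interaction. Over these and the fit without both arrays that stood apart, sign changes came for Igf2bp1 in CDL against RDL (-0.0805 to 0.0473 at day 4, -0.54 to 0.003 at day 6), in RDL day 6 against ES cells (-0.54 to 0.0025) and in the interaction (-0.51 to 0.039), for Igf2bp3 in CDL against RDL day 6 (-0.32 to 0.0329) and RDL day 6 against RDL day 4 (-0.31 to 0.0194), and for Trim71 in CDL against RDL day 6 (-0.24 to 0.28) and the interaction (-0.39 to 0.17, and 0.0113 with the mean of probe sets). Without both arrays that stood apart these gave 0.0025 for Igf2bp1 in RDL day 6 against ES cells, 0.0194 for Igf2bp3 in RDL day 6 against RDL day 4 and -0.24 for Trim71 in CDL against RDL day 6. The cause was not tested. Lin28b lay below the array median on all arrays, which limits any statement on it.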

Other observations

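Other genes of fetal tissue differed in direction between the days. Of 8 listed oncofetal genes outside the 7, 5 were tested, and 4 were higher and 0 lower at day 4 against ES cells in each medium. Over all genes 26.6% were called higher in CDL and 27.6% in RDL cells. The counts were the same in the fit without both arrays that stood apart, which has no shares over all genes beside it. Gpc3, a glypican of fetal liver and liver tumours, was higher by 2.84 in CDL and 3.32 in RDL cells at day 4. Dlk1, an imprinted ligand-like protein, was higher by 1.61 and 1.74 at day 4 and rose between the days by 1.5 in CDL and 3.43 in RDL cells, and at day 6 it was lower in CDL than in RDL cells by -2.06. Sall4, a zinc finger factor of stem cells and fetal liver, fell between the days by -1.71 and -1.31. In a separate list of the Hmga and Hmgb family, 2 genes were tested. Of these Hmgb3, a chromatin protein, was higher than in ES cells by 2.54 in CDL and 2.89 in RDL cells at day 4. It gave 0.12 and -0.05 between the days. The other, Hmgb2, gave -0.05 in CDL cells (not called) and 0.21 in RDL cells at day 4 against ES cells.

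Among 14 other RNA-binding genes tested, L1td1 and Dppa5a, both tied to pluripotent cells, fell most against ES cells at day 4. Then 5 of the 14 were higher and 4 lower in CDL cells and 7 higher and 4 lower in RDL cells. Over all genes 26.6% were called higher and 29.6% lower in CDL cells, and 27.6% and 29.5% in RDL cells. The counts lower are thus near the background. In the fit without both arrays that stood apart the counts were the same, with no shares over all genes beside them. L1td1 fell by -3.57 in CDL cells, where the array with ES markers read 1086 and the lowest array 127, and by -4.90 in RDL cells. Esrp1, an epithelial splicing regulator, was higher at day 4 by 1.59 in CDL and 0.93 in RDL cells and fell between the days by -1.34 and -0.83. Mbnl2, a splicing regulator, was lower at day 4 by -1.29 and -1.20 and rose between the days by 1.09 and 2.06. Zfp36l1, which marks mRNAs for decay, rose between the days by 1.35 and 1.06.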
